A study of Mus musculus with 58 samples.

Results

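The genes described here encode complement and coagulation proteins, the plasma cascade proteins that hepatocytes secrete. They were chosen by gene symbol, and all 41 symbols were found among the 24537 genes of the count table. By role they comprise 6 proteins of the lectin and classical complement start, C3 and factor B, 5 terminal complement proteins, 4 complement regulators, 5 contact and kinin proteins, 4 vitamin K dependent procoagulants, 3 vitamin K dependent regulators, factor V and the factor XIII carrier subunit, 4 fibrinogen family genes, 2 anticoagulant serpins and 4 genes of fibrinolysis. The samples are 58 whole livers of male C57BL6/J mice, 42 old and 16 young, each sequenced as polyA RNA. Every mouse, controls included, had received an AAV8 vector with the TBG promoter, which is active in hepatocytes, and this vector carried Myc, a growth-promoting transcription factor, or mApple, a red fluorescent protein. Every mouse was also gavaged for 30 days with ruxolitinib (45 mg/kg, 2 times a day with a 2-day weekend break), which blocks JAK1 and JAK2 kinase activity, or with vehicle. The groups were old Myc with ruxolitinib (14 livers), old Myc with vehicle (11), old mApple with ruxolitinib (9), old mApple with vehicle (8), young Myc with ruxolitinib (10) and young mApple with vehicle (6). The young mice were 4 months old and were sequenced in the second batch only. The old mice were 25 months old in the first batch and 24 months old in the second, so age among them cannot be told apart from batch.

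As background, complement is a chain of plasma proteases and binding proteins that tags microbes with fragments of C3 and ends in a pore built from C5b, C6, C7, C8 and C9. Coagulation is a second protease chain in which thrombin, made from prothrombin, turns fibrinogen into fibrin, while antithrombin, the protein C system and plasmin limit and remove the clot. The liver is the main source of most of these proteins, and C3, C4 and fibrinogen are acute-phase proteins. The fibrinogen genes respond to interleukin 6 through JAK kinases and STAT3. Binding of interleukin 6 to its receptor chains Il6ra and Il6st starts that signal.

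The libraries held 10.68 to 40.98 M exon counts (M for mega; median 14.6 M). The vector check was Myc itself, in CPM (counts scaled to a common library total), after TMM scaling, which corrects totals for a few very abundant genes. The lowest, median and highest Myc levels were 24.4, 32.9 and 111 CPM in old Myc ruxolitinib livers, 6.85, 37.8 and 132 in old Myc vehicle livers, 2.35, 7.67 and 19.3 in old mApple ruxolitinib livers and 2.93, 15.6 and 56.8 in old mApple vehicle livers. In young mice they were 36.1, 50.9 and 61.5 CPM in Myc ruxolitinib livers and 4.23, 8.28 and 22.4 in mApple vehicle livers, with no overlap. Library 870, labelled old Myc vehicle, held the 6.85 CPM, and library 855, labelled old mApple vehicle, held the 56.8 CPM, above the median of the old Myc vehicle livers, so that both went against their labels. Of the 12 hepatocyte markers, 0 were at 0 in any library. Libraries 860 and 861 (old Myc ruxolitinib, first batch) stood apart with hepatocyte marker levels of 9.76 and 9.61, on the mean log2(CPM + 1) scale, against 10.83 to 11.28 in old Myc vehicle livers, and with Kupffer cell marker levels of 8.20 and 7.95 against 3.53 to 5.17 in old Myc vehicle livers. Serum amyloid A1 (Saa1), an acute-phase gene, stood at 855, 936, 1447 and 2110 CPM in libraries 1158, 1150, 1149 and 1154 (old Myc ruxolitinib), against 17.8 to 37.1 CPM in the other 6 second-batch livers of that group. It was also high in library 864 (old mApple ruxolitinib, 9331 CPM) and library 1137 (old mApple vehicle, 2097 CPM). Library 864 also had the highest summed neutrophil markers of its group (720.5 CPM, against 2.66 to 5.60 CPM in the other 8 livers) and bile duct markers (888 CPM, against 77.7 to 451 CPM) and the lowest summed hepatocyte markers (50734 CPM, against 108580.0 to 182790.0 CPM). On the mean log2(CPM + 1) scale its hepatocyte marker level was 10.53, against 10.63 to 11.44 in those 8 livers. The part of neutrophils, bile duct cells and hepatocytes in its values was not tested. Several comparisons that rest on these libraries are given with and without them, while the summed levels hold all libraries.

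Together the 41 genes were a large share of liver mRNA. Their summed level was 4.56% of scaled counts in old Myc ruxolitinib livers (median, range 3.08 to 8.29), 5.16% in old Myc vehicle livers (3.69 to 6.38), 4.88% in old mApple ruxolitinib livers (2.85 to 7.92) and 5.50% in old mApple vehicle livers (4.66 to 8.65). In young mice the scaled level was 4.18% in Myc ruxolitinib livers (3.63 to 4.98) and 5.66% in mApple vehicle livers (5.10 to 6.13). These ranges did not overlap. With library totals they did, at 3.70 to 5.11% in young Myc ruxolitinib livers and 4.61 to 5.35% in young mApple vehicle livers. In bulk tissue, fewer cells of a type and less RNA per cell cannot be told apart.

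Compared per length, as CPM per kilobase of exon, the 3 fibrinogen chains led the set, with medians over the 58 livers of 2704 for Fgb, 1988 for Fgg and 1641 for Fga. C3, the central complement protein, followed at 1493, the terminal pathway inhibitor vitronectin (Vtn) at 1215, the kinin precursor Kng1 at 1156 and plasminogen (Plg) at 1025. Antithrombin (Serpinc1, 888) and prothrombin (F2, 882) were close to each other. The lowest levels belonged to factor XI (F11, 24.4) and protein S (Pros1, 23.7), whose ranges of 8.65 to 41.2 and 17.2 to 50.3 overlapped widely. Within groups and batches the genes varied more than most: the median SD of log2 CPM was 0.30 for the 41 (0.21 to 1.02), against 0.24 for 12757 genes with a mean of at least 1 CPM. The most variable was Fgl1 (SD 1.02), which encodes fibrinogen-like protein 1, followed by histidine-rich glycoprotein (Hrg, 0.50) and the mannose-binding lectin Mbl2 (0.47).

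Fibrinogen is built from equal numbers of its alpha, beta and gamma chains, and the genes Fgg, Fga and Fgb lie side by side on chromosome 3, with gaps of 11.1 kb between Fgg and Fga and 8.63 kb between Fga and Fgb (GRCm38). Per kilobase of exon, the level of Fga was 0.832 of that of Fgg (median of 58 livers, range 0.538 to 1.08) and that of Fgb was 1.34 times that of Fgg (1.06 to 1.62). Their promoters are shown because the 3 genes moved together across livers, and the promoter of C6 because C6 differed in more comparisons than any other member. Each runs 5′ to 3′ from 250 bases before to 50 bases after the gene's start in RefSeq (GRCm38.p6). Capitals mark matches to TTCNNNGAA, the palindrome that STAT dimers bind, or to CTGGGAA, the core of an interleukin 6 response element, on either strand. The regions are chr3:83025903-83026202 (plus strand) for Fga, chr3:83049814-83050113 (minus strand) for Fgb, chr3:83007474-83007773 (plus strand) for Fgg and chr15:4726960-4727259 (plus strand) for C6.
Fga: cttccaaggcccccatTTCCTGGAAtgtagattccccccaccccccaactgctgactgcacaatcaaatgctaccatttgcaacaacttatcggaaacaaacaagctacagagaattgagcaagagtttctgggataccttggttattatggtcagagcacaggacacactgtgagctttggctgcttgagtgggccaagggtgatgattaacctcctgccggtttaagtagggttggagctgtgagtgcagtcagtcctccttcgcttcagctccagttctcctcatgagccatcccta
Fgb: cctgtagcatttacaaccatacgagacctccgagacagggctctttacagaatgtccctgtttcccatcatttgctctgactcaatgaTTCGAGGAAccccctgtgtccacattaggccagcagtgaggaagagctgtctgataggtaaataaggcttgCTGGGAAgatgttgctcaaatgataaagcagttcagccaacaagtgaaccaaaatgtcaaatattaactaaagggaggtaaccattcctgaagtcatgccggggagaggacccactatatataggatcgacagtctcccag
Fgg: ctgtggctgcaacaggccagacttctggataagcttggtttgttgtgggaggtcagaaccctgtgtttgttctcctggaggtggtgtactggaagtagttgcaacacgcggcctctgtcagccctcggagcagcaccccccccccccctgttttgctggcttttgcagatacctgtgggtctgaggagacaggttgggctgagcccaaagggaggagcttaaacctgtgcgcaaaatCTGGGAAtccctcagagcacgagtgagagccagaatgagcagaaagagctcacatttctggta
C6: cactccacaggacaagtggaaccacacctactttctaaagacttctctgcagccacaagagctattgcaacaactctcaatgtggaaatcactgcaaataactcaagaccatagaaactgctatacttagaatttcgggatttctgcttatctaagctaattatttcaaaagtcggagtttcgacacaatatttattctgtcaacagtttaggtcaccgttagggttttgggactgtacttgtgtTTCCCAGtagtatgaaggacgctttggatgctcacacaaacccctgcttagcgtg
TTCCTGGAA began 234 bases before the start of Fga, TTCGAGGAA 162 and CTGGGAA 91 bases before that of Fgb, CTGGGAA 13 bases before that of Fgg, and TTCCCAG, its reverse complement, 5 bases before that of C6. RefSeq promoters were matched for 31 of the 41 members (32 promoters). The letters TTCNNNGAA were in 7 of the 32 (21.9%; C8a, F9, Fga, Fgb, Masp2, Pros1 and Vtn), against 8.30% of 32851 mouse promoters of the same length. CTGGGAA was in 7 (21.9%; C6, F9, Fgb, Fgg, Kng2, Masp2 and Vtn) against 11.1%, the C/EBP letters TTNCNNAA in 18 (56.2%) against 40.7%, and the HNF1 motif in 1 (3.12%; F13b) against 0.14%. The E-box letters CACGTG, bound by Myc and Max, were in 0 of the 32 windows, against 7.15% of all. The matches in capitals do not overlap each other, and that of C6 covers the first 2 bases of the gene.

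The broadest change was in young mice, where Myc and ruxolitinib were given together and their parts cannot be told apart. Of the 41 genes, 31 passed the threshold (adjusted p under 0.05 in edgeR's quasi-likelihood test over 12808 genes): 29 were lower and 2 higher in Myc ruxolitinib livers than in mApple vehicle livers. Over all genes tested 27.5% were called, 14% lower and 13.5% higher, and over the 2209 genes at least as abundant as the least abundant member 20.9% lower and 15.5% higher. The median log2 fold change was -0.37 for the members and -0.01 for all genes. Scaled by library totals instead of TMM, the median of all genes moved to 0.16 and that of the members to -0.20, so members minus all genes came to -0.36 with TMM and -0.37 with totals, but the count was 20 with totals, with 16 lower and 4 higher. The share of called genes that were higher was 49.0% with TMM and 84.0% with totals. In 12 members every Myc ruxolitinib liver lay below every mApple vehicle liver, against 2.94% of all genes tested, and in 0 every one lay above, against 4.75%.

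**Figure D1:**
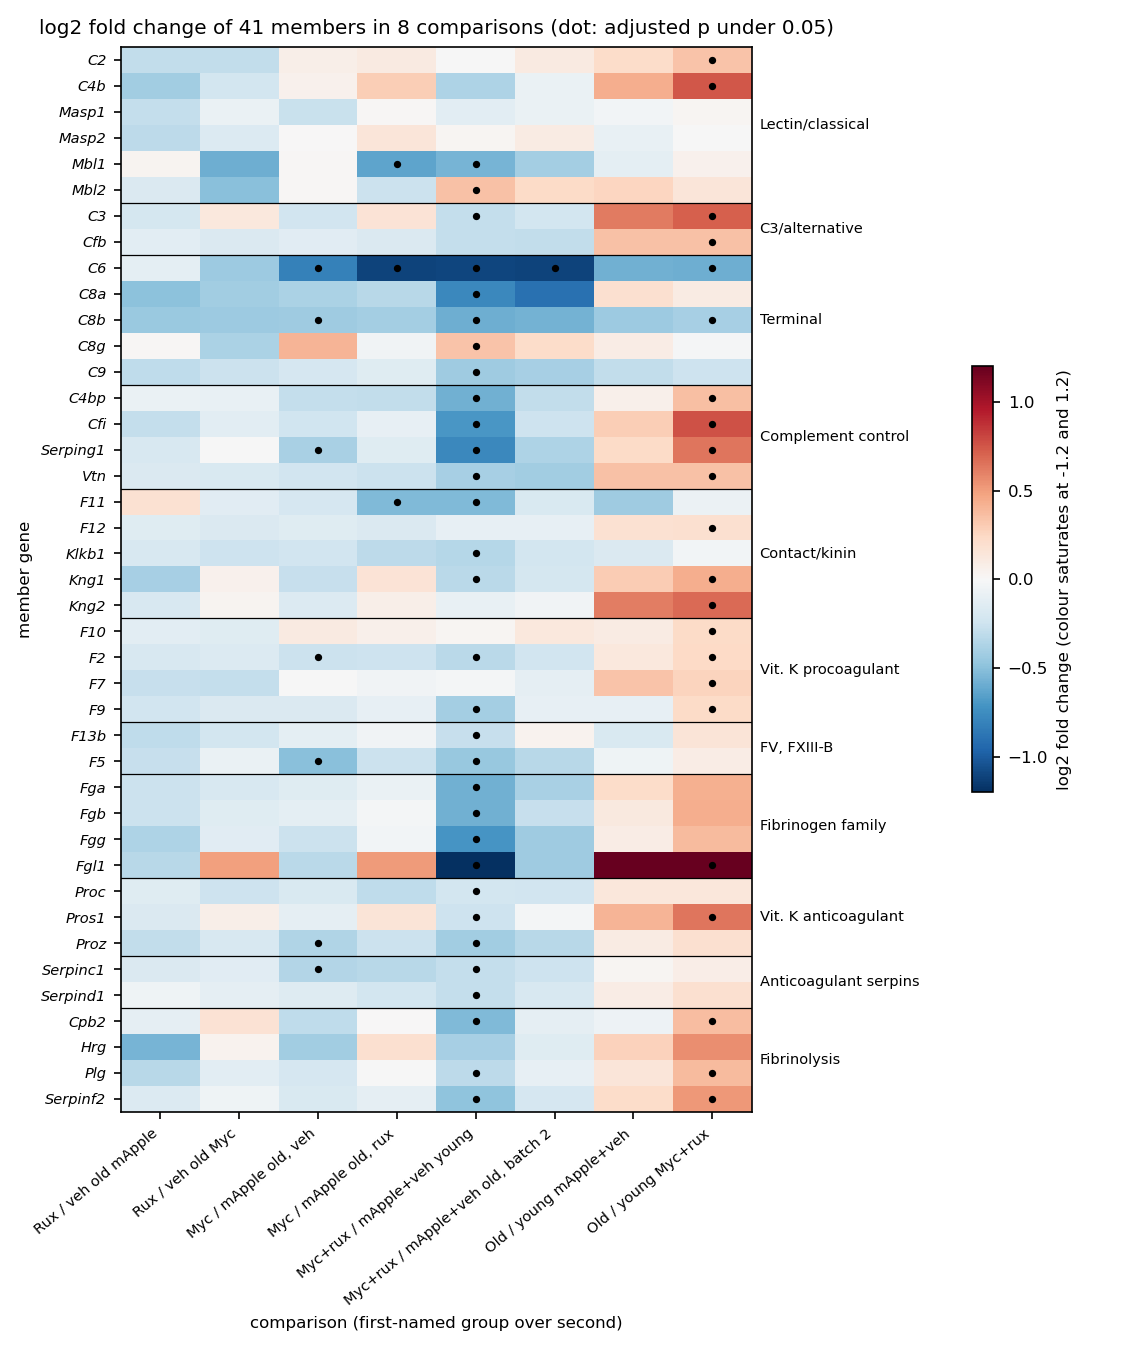
Colour gives the log2 fold change of each of the 41 genes (rows, grouped by role) in 8 comparisons (columns, first-named group over the second), and a dot marks an adjusted p under 0.05. The column of the young livers holds 31 dots, the columns of ruxolitinib in old livers hold 0, and the row of C6 is blue in all columns.

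Of the terminal complement genes, C6 and C8a were among the members that differed most between young groups. C6, the second protein of the pore, ranged over 152, 176 and 250.3 CPM (lowest, median, highest) in Myc ruxolitinib livers and over 250.5, 404 and 528 CPM in mApple vehicle livers. The groups did not overlap, and the log2 fold change was -1.10 ± 0.14 (SE, n = 10 and 6; edgeR adjusted p = 1.09e-05). C8a, which encodes the alpha chain of C8, had 509, 562 and 710.4 CPM in Myc ruxolitinib livers against 875, 974 and 1196 CPM in mApple vehicle livers, again with no overlap (-0.77 ± 0.09, edgeR adjusted p = 3.59e-06). C8b, its neighbour 11.1 kb away on chromosome 4, fell by 0.59 ± 0.10 on the log2 scale, also without overlap. The pore-forming C9 fell by 0.43 ± 0.10 with overlap. The gamma chain of C8 went the other way: C8g stood at 197, 249 and 287 CPM in Myc ruxolitinib livers and at 138, 216 and 228 CPM in mApple vehicle livers (0.34 ± 0.10, edgeR adjusted p = 0.0192), with 8 of 10 livers above the highest mApple vehicle liver. So 4 of the 5 terminal genes fell and 1 rose. C5, which starts the pore, is listed as Hc and was counted among other genes of the pathway; it fell by 0.40 on the log2 scale.

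All 4 complement regulators fell in the young livers. Serping1, the C1 inhibitor that also blocks kallikrein and factor XII, had 515, 591 and 727 CPM in Myc ruxolitinib livers and 838, 972 and 1405 CPM in mApple vehicle livers (-0.77 ± 0.10, edgeR adjusted p = 1.24e-05). Factor I (Cfi), the protease that inactivates C3b and C4b, had 428, 501 and 638 CPM in Myc ruxolitinib livers against 709.8, 801 and 1015 CPM in mApple vehicle livers (-0.70 ± 0.09, edgeR adjusted p = 6.64e-06). C4b-binding protein (C4bp), its cofactor, fell by 0.58 ± 0.07. None of these 3 groups of values overlapped, whereas those of vitronectin (-0.40 ± 0.10) did. In the early steps the calls were mixed. C3 fell by 0.29 ± 0.09, with 5 of 10 livers below the lowest mApple vehicle liver, and lost its call without library 1129 or library 1134. The 2 mannose-binding lectins, pattern receptors that start the lectin pathway, had opposite signs, with Mbl1 at -0.56 ± 0.15 and Mbl2 at 0.35 ± 0.12. Mbl2 lost its call without any 1 of 11 of the 16 libraries (adjusted p = 0.0377 with all). The lectin pathway proteases Masp1 (-0.13, 95% interval -0.29 to 0.03) and Masp2 (0.03, -0.10 to 0.15), and C2 (-0.01, -0.25 to 0.23), were not past the threshold. C4b (-0.37, adjusted p = 0.0575) and factor B (Cfb, -0.28, adjusted p = 0.0590) were just outside it.

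All 4 fibrinogen family genes fell as well. Fgg had 2514, 3026 and 4549 CPM in young Myc ruxolitinib livers and 3892, 5218 and 6655 CPM in young mApple vehicle livers, with 9 of 10 below the lowest control (-0.70 ± 0.13, edgeR adjusted p = 4.47e-04). Fga and Fgb, from the same gene cluster, had the nearly equal log2 fold changes of -0.58 ± 0.12 each. Fgl1, a secreted relative of fibrinogen that is not part of fibrin, had 34.7, 69.3 and 236 CPM in Myc ruxolitinib livers against 156, 183.5 and 349.5 CPM in mApple vehicle livers (-1.36 ± 0.31, edgeR adjusted p = 0.00301). The liver that overlapped in all 4 genes was library 1127, at 7536 CPM of Fga and 236 CPM of Fgl1, and its Saa1 was 432 CPM, against 6.15 to 139 CPM in the other 9 livers of its group. Without it 34 members were called, beside 3410 calls over all genes, against 3524 with all livers.

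In the coagulation chain outside the fibrinogen family, the values past the threshold lay between -0.22 and -0.53. Of the contact and kinin genes 3 of 5 fell: factor XI (-0.53 ± 0.09), prekallikrein (Klkb1, -0.34 ± 0.07) and Kng1 (-0.32 ± 0.12), while factor XII (F12, -0.09, 95% interval -0.32 to 0.13) and Kng2 (-0.09, -0.25 to 0.08) were not past the threshold. Among the vitamin K dependent procoagulants factor IX (F9, -0.41 ± 0.10) and prothrombin (-0.32 ± 0.08) fell, and factor VII (F7, -0.02, -0.20 to 0.15) and factor X (F10, 0.02, -0.12 to 0.16) were not called. Factor V (F5), the cofactor of factor Xa, was at -0.45 ± 0.12 and the B subunit of factor XIII (F13b) at -0.28 ± 0.08, both past the threshold. The brakes fell too: protein Z (Proz, -0.42 ± 0.06), which helps inhibit factor Xa, protein S (-0.25 ± 0.09), protein C (Proc, -0.22 ± 0.07), antithrombin (-0.29 ± 0.06) and heparin cofactor II (Serpind1, -0.28 ± 0.06). Kng1 and protein S each lost the call without any 1 of 10 libraries. In fibrinolysis, Cpb2, whose product trims fibrin and slows lysis, was at -0.53 ± 0.12, the plasmin inhibitor Serpinf2 at -0.48 ± 0.08 and plasminogen at -0.32 ± 0.07, while Hrg (-0.40, adjusted p = 0.0550) was not called. Genes that promote clotting and genes that limit it were thus lower in the same livers.

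Values of other genes moved with this comparison. Of 12 hepatocyte markers, 4 were lower (Alb by 0.85, Apoa1 by 0.81, Ttr by 0.39 and Fah by 0.23 on the log2 scale) and 1 was higher (Tdo2, 0.27). Their summed level ranged over 79867 to 107800.0 CPM in Myc ruxolitinib livers and 121730.0 to 218360.0 CPM in mApple vehicle livers, and its part in the result was not tested. Of 14 acute-phase genes outside the set 5 fell, among them Apcs, the pentraxin serum amyloid P (-1.64). Of 13 listed regulators of liver transcription and of interleukin 6 signalling 7 fell. These were the transcription factors Onecut1 (-3.29), Foxa2 (-0.82) and Cebpb (-0.39), Socs3, a feedback target of STAT3 (-2.06), Stat3 (-0.71), Il6ra (-0.56) and Il6st (-0.27). Of 54 other complement and coagulation genes tested 17 fell and 2 rose (median -0.14). Those with the smallest p were C1rl (-0.82), a protease related to C1r, C1qbp (0.95), a mitochondrial protein that binds C1q, C1s1 (-0.44), a protease of the C1 complex, and the protease inhibitor Serpine2 (-0.87). Library 1134 (young mApple vehicle) stood apart in 12 members. Without it 31 members were called, of which 28 were the same, while Kng1, C3 and Mbl2 were not. Calls over all genes came to 3783, against 3524 with all livers.

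**Figure D2:**
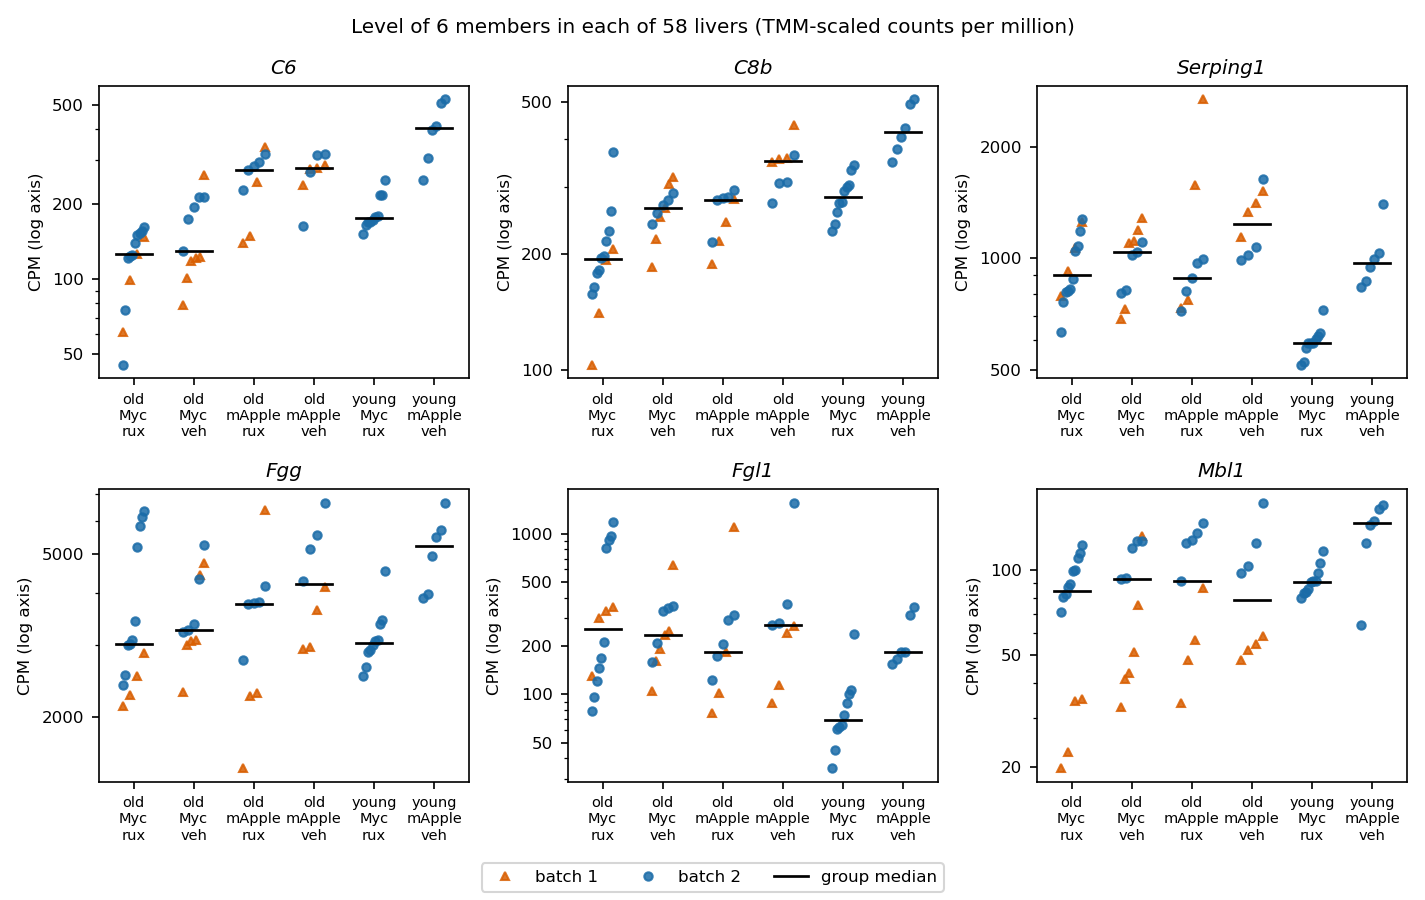
Each point is a liver, with its CPM on a log axis, for 6 members in the 6 groups, with batch by symbol and the group median as a bar. C6 is highest in young mApple vehicle livers (median 404 CPM) and lowest in the old Myc groups (medians 126 and 130 CPM), and the lowest Mbl1 values are those of first-batch livers.

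C6 was the member that differed most often. In old livers under vehicle it had 78.5, 129.9 and 263 CPM with Myc and 164, 279 and 318 CPM with mApple, with 6 of 11 Myc vehicle livers below the lowest mApple vehicle liver (-0.81 ± 0.19, edgeR adjusted p = 0.00466). Under ruxolitinib it had 45.3, 126 and 163 CPM with Myc and 140.3, 274 and 339 CPM with mApple, and 9 of 14 Myc livers lay below the lowest mApple liver (-1.11 ± 0.19, edgeR adjusted p = 5.79e-04). It passed the threshold in 5 of the 8 comparisons between groups and in neither comparison of ruxolitinib with vehicle. C8b was called in 3 and was lower in the first-named group in all 8, at -0.40 to -0.59.

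The Myc vector alone was tested in old livers. Under vehicle 7 of 41 members were called and all were lower with Myc. Over all 13547 genes 18.8% were called, 8.01% lower and 10.8% higher, and over the 3055 genes at least as abundant as the least abundant member 11.9% lower, beside 17.1% of the members. After C6 the largest was factor V, with 326, 528 and 804 CPM in Myc livers and 606, 701 and 993 CPM in mApple livers, with 9 of 11 below the lowest mApple liver (-0.50 ± 0.11, edgeR adjusted p = 0.00373). Antithrombin had 1626, 1829.9 and 2037 CPM with Myc and 2023, 2353 and 2457 CPM with mApple (-0.35 ± 0.07, edgeR adjusted p = 0.00170), and 9 of 11 Myc livers lay below the lowest mApple liver. The others were C8b (-0.42 ± 0.10), Serping1 (-0.39 ± 0.13), protein Z (-0.36 ± 0.08) and prothrombin (-0.25 ± 0.08). Serping1 lost its call without any 1 of 8 libraries (1137, 1144, 1147, 854, 855, 862, 866 and 871) and prothrombin without library 1145, 855 or 862. The 41 genes had a median of -0.21, with 34 negative. Without library 870 12 were called, the 7 and C8a, Vtn, Cfi, C4bp and Proc, while calls over all genes came to 23.0%. Without library 855 5 were called, with 14.1% over all genes. Without both, chosen after seeing the data, 10 were called, all lower, with 18.6% over all genes, and Serping1 was not among them. In the second batch alone 0 were called (5 and 4 livers), and in the first batch alone 3. Of 12 hepatocyte markers 4 were lower and of 7 sinusoidal endothelial markers 6 were lower with Myc, and their part was not tested. Of 58 other pathway genes 10 fell and 1 rose; those with the smallest p were C1qbp (0.95), C1rl (-0.51), the protease inhibitor Pzp (-0.50) and the factor H related Cfhr2 (-0.27).

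Under ruxolitinib, 3 of 41 were lower with Myc than with mApple in old livers, against 5.96% of 14010 genes called lower and 8.40% higher (14.4% in all). Beside C6 these were Mbl1, with 19.8, 84.8 and 123 CPM in Myc livers and 33.8, 91.4 and 147 CPM in mApple livers (-0.63 ± 0.15, edgeR adjusted p = 0.00804), and factor XI, with 19.3, 39.95 and 75.5 CPM in Myc livers against 30.6, 61.1 and 79.7 CPM in mApple livers (-0.53 ± 0.17, edgeR adjusted p = 0.0401). The groups overlapped for both. Mbl1 lost its call without the batch term (-0.33) and in either batch alone (-1.03 and -0.38), and in every group of old mice mean Mbl1 was lower in first-batch livers than in second-batch livers. Factor XI lost its call without any 1 of 11 of the 23 libraries. The median of the members was -0.10, with -0.36 in the first batch alone and 0.09 in the second. Without libraries 860, 861, 864 and 865 it was 0.01. The medians over all genes lay between -0.02 and 0.01 in these 4 fits. In the second batch alone C4b (0.62) and C2 (0.39), which form the classical C3 convertase, were higher with Myc and C6 was lower. Without the 4 livers high in Saa1 6 members were called (13% of all genes), all lower, with C8a (-0.53), C8b (-0.55) and C4bp (-0.42) added. These livers were chosen after seeing the data and left out of the Myc side only, so the 6 calls are not independent of that choice. With library 864 of the mApple side left out too, C8a was at -0.47, C8b at -0.54 and C4bp at -0.30. Without library 869 also 6 were called (15.9% of all genes), with C8b, Serpinc1 and Proc added. Of 12 hepatocyte markers 2 were lower with Myc, and their part was not tested. Of 61 other pathway genes 5 fell and 2 rose; those with the smallest p were C1rl (-0.68), Mcfd2 (-0.36), a cargo receptor partner for factors V and VIII, C1qbp (0.65) and Serpine2 (-0.67).

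Ruxolitinib alone was not followed by a called change of any member in old livers. In Myc livers 0 of 41 passed in edgeR and 0 in DESeq2, with 5 at an unadjusted p under 0.05, against 0.545% of 13749 genes called (0.0436% higher and 0.502% lower). In mApple livers 0 passed in edgeR and 1 in DESeq2, C8b, with 12 at an unadjusted p under 0.05, against 0.391% of 13554 genes called (0.00738% higher and 0.384% lower). The values leaned downward, with a median of -0.16 and 34 of 41 negative in Myc livers, and a median of -0.21 and 38 of 41 negative in mApple livers, against medians of 0.01 over all genes in each. The 12 hepatocyte markers had a median of -0.15 in Myc livers and -0.14 in mApple livers, with 0 called in each. The 8 Kupffer cell markers had a median of 0.67 in Myc livers and -0.33 in mApple livers, and the platelet markers that could be tested one of 0.86 (3 genes) in Myc livers and 0.73 (4 genes) in mApple livers, with 0 called. Their part in the members' values was not tested. The lowest value in mApple livers was that of Hrg (-0.56, edgeR adjusted p = 0.370). C8b had 189, 276 and 294 CPM in mApple ruxolitinib livers and 272, 351 and 436 CPM in mApple vehicle livers (-0.45 ± 0.11, edgeR adjusted p = 0.110), and C8a was at -0.49 ± 0.16 (edgeR adjusted p = 0.292). In Myc livers C8b was at -0.44 ± 0.14 (edgeR adjusted p = 0.193) and Mbl1 at -0.59 ± 0.20 (edgeR adjusted p = 0.230). The 95% interval of C3 was -0.22 to 0.47 in Myc livers and -0.77 to 0.34 in mApple livers, and that of Fgg -0.53 to 0.26 in Myc livers and -0.85 to 0.11 in mApple livers. Of the listed regulators Stat3 (-0.69, edgeR adjusted p = 0.0303) and Il6st (-0.50, edgeR adjusted p = 0.0407) were lower with ruxolitinib in mApple livers. In Myc livers 1 of the 13 was, Onecut1, a hepatocyte transcription factor (-1.70, edgeR adjusted p = 0.0498). Of the other pathway genes C4a (-0.62, edgeR adjusted p = 0.0457), which shares most of its sequence with C4b, was lower in Myc livers, 1 of 61 tested, and 0 of 58 were called in mApple livers. In Myc livers the lean depended on the batch, with medians of -0.42 in the first and 0.02 in the second, and without libraries 860 and 861 the median was -0.02. Without the 4 Myc ruxolitinib livers high in Saa1 C8a (-0.60) and C8b (-0.58) were called lower with ruxolitinib. These livers were chosen after seeing the data and left out of the ruxolitinib side only. C8a was 988, 867, 233 and 1240 CPM in libraries 1149, 1150, 1154 and 1158, against 426 to 577 CPM in the other 6 second-batch livers of that group. The call of C8a is therefore not independent of that choice. Without library 1158 alone C8b (-0.51) was called lower, beside 64 calls over all genes. Without library 864 the mApple livers gave 2 calls, Fgg (-0.67) and C9 (-0.38), beside 75 calls over all genes. Without library 1137 as well, the mApple vehicle liver high in Saa1, neither was called and the median of the members was -0.26. The difference of the drug effect between Myc and mApple livers was tested as an interaction: 0 of 41 and 0 of 14046 genes (0%) passed in edgeR and 0 in DESeq2, with 1 member (Mbl1, -0.61, unadjusted p = 0.0277) and 735 genes at an unadjusted p under 0.05. The 2 comparisons of Myc with mApple and the 2 of ruxolitinib with vehicle share groups and are not independent of each other.

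The combination of Myc and ruxolitinib could also be set against mApple and vehicle in old livers of the second batch (10 and 4 livers). There 1 of 41 members was called, against 10.9% of 13761 genes (4.35% lower and 6.52% higher), with 7 members at an unadjusted p under 0.05. In 1 fit of all 58 libraries the spread was shared and both groups also held their first-batch livers (14 and 8 livers). There 14 members were called, all lower, among them C8b (-0.82) and C8a (-0.80), and 23.9% of all genes. The median of the members was -0.29 in that fit, against -0.22 in the second batch alone, so the values moved as well. The member called in the smaller fit was C6, with 45.3, 132 and 163 CPM in the 10 Myc ruxolitinib livers against 164, 269, 315 and 318 CPM in the 4 mApple vehicle livers (-1.11 ± 0.26, edgeR adjusted p = 0.0160), without overlap, which was so for 1.98% of genes, while 4.36% of genes lay wholly higher. The call was lost without library 1135 or library 1136 (539 and 838 calls over all genes, against 1496 with all). Without library 1158 4 members were called, C6, C8a, C8b and Proz, beside 1353 calls over all genes. The median of the members was -0.22. Leaving out the 4 Myc ruxolitinib livers high in Saa1 gave 20 calls (19 lower, 1 higher, Mbl2) and 14.5% of all genes (6.57% lower), and leaving out library 1137, the mApple vehicle liver high in Saa1, as well gave 15 (14 lower, 1 higher) and 13.1% of all genes (6.33% lower). Among the 14 were all 3 fibrinogen chains (-0.70 to -0.81), Fgl1 (-1.18), C8a (-1.03), C8b (-0.72) and C6 (-1.13). These libraries were chosen after seeing the data, by acute-phase genes related to C3 and fibrinogen, so the counts without them are not independent of the members' own levels. Of 60 other pathway genes 9 fell and 1 rose; those with the smallest p were C1qbp (0.96), C1rl (-0.48), the C5a receptor C5ar2 (-0.91) and thrombomodulin (Thbd, -1.21). Of 7 sinusoidal endothelial markers 5 were lower.

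**Figure D3:**
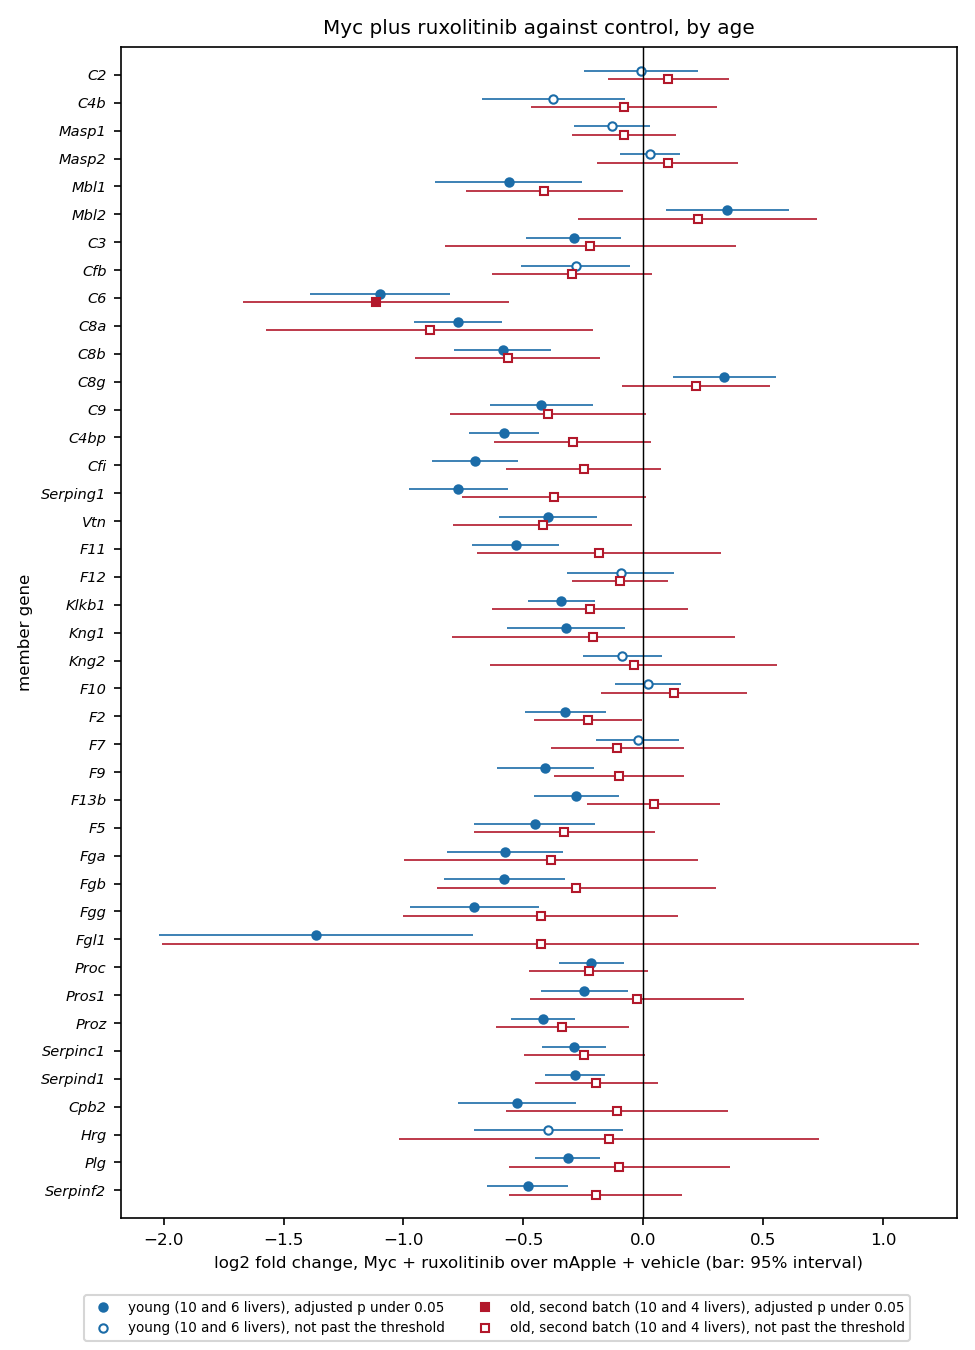
Points give the log2 fold change of Myc with ruxolitinib over mApple with vehicle for each of the 41 genes, in young livers (circles, 10 and 6 livers) and in old livers of the second batch (squares, 10 and 4), with 95% intervals, filled where the adjusted p was under 0.05. C6 is at -1.10 in young and -1.11 in old livers, and Fgl1 has the widest interval at both ages.

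Whether the combined effect differed between ages was tested as an interaction over these 4 groups. It was called for 0 of 41 members in edgeR and 0 in DESeq2, against 0.287% of 13609 genes (0.103% higher and 0.184% lower), with 2 members at an unadjusted p under 0.05, Cfi (0.45, 95% interval 0.10 to 0.79, unadjusted p = 0.0128) and F13b (0.32, 95% interval 0.0024 to 0.64, unadjusted p = 0.0484). The 31 calls in young livers and the 1 in old livers are therefore not shown to differ.

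Age itself was compared within the second batch, in each treatment. In Myc ruxolitinib livers 22 of 41 members were called, 20 higher and 2 lower in old than in young mice. Myc itself was lower in the old livers of this comparison (-0.70, edgeR adjusted p = 3.33e-05), and its part in the members' values was not tested. Over all 12760 genes 33.7% were called, 18.1% higher and 15.6% lower, and over the 2615 genes at least as abundant as the least abundant member 14.6% higher and 22.9% lower. Factor I had 689.8, 824 and 1143 CPM in old livers and 428, 501 and 638 CPM in young livers, without overlap (0.77 ± 0.10, edgeR adjusted p = 7.75e-06), which was so for 1.61% of genes. C4b, which encodes complement C4, had 1965, 2277 and 3759 CPM in old livers and 1259, 1425 and 2089 CPM in young livers (0.75 ± 0.13, edgeR adjusted p = 1.56e-04). C3 had 5609, 8929 and 17330.0 CPM in old livers against 5228, 6292 and 7061 CPM in young livers (0.72 ± 0.17, edgeR adjusted p = 0.00306). All 4 complement regulators, all 4 vitamin K dependent procoagulants (0.23 to 0.27), both C3 and factor B, and 3 of 4 fibrinolysis genes were higher, and Fgl1 had the largest value (2.42 ± 0.52, edgeR adjusted p = 0.00129). The terminal pathway was lower or not called, with C6 at -0.58 ± 0.17 (edgeR adjusted p = 0.0112) and C8b at -0.40 ± 0.13 (edgeR adjusted p = 0.0198). Kng1 lost its call without any 1 of 13 libraries, F10 of 10, Plg of 5 and Cpb2 of 4.

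Part of this rested on the 4 old livers high in Saa1. In libraries 1149, 1150, 1154 and 1158 Fgl1 stood at 973, 814, 1174 and 918 CPM, against 79.4 to 212 CPM in the other 6 old livers. Fga stood at 10880.0, 10680.0, 9983 and 10329 CPM in them, against 3996 to 5816 CPM in the other 6. Without the 4, chosen after seeing the data, 17 members were called, 12 higher and 5 lower, and 13 of these were among the 22. Over all genes 37.4% were called in that fit, 19.1% higher and 18.3% lower. Factor I (0.56), C4b (0.54), Serping1 (0.39), Pros1 (0.32), C3 (0.28) and Serpinf2 (0.25) remained higher, and Mbl2 (0.31) was added. C6 (-0.43) and C8b (-0.65) remained lower and were joined by C9 (-0.39), C8a (-0.27) and Masp2 (-0.16). Calls were lost for Fgl1 (0.63, edgeR adjusted p = 0.124), Kng2, Plg, Cpb2, Vtn, F7, F9, F10 and Kng1, the last at -0.004145. The fibrinogen chains, not called in either fit, went to -0.13, -0.08 and -0.13 for Fga, Fgb and Fgg without the 4 livers, against 0.43, 0.43 and 0.38 with them. Of 14 acute-phase genes outside the set 11 were higher in old Myc ruxolitinib livers. Of 12 hepatocyte markers 3 were higher and 4 lower and of 7 sinusoidal endothelial markers 4 were lower in them. The B cell and plasma cell markers that could be tested (3 of 6), 1 neutrophil marker (1 of 8 tested), 1 platelet marker (1 of 6 tested) and 1 bile duct marker (4 of 6 tested) were higher. Their part was not tested. Of 55 other pathway genes 12 rose and 8 fell; those with the smallest p were Serpine2 (0.85), the protein S relative Gas6 (1.11), C1rl (0.25) and C1qbp (-0.31).

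**Figure D4:**
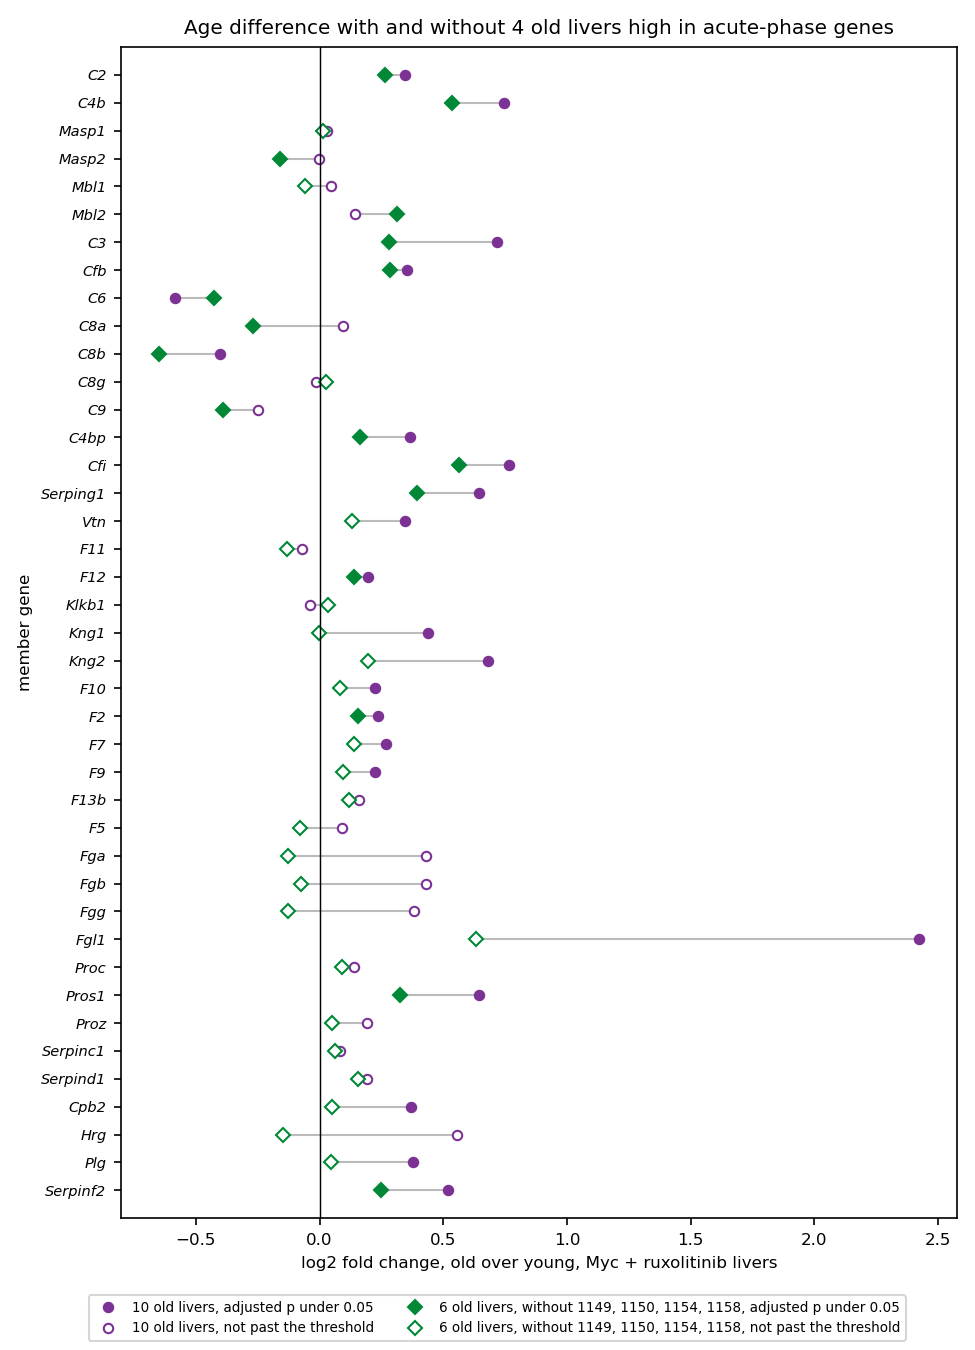
Each row gives the log2 fold change of old over young Myc ruxolitinib livers for a member, from all 10 old livers (circles) and without the 4 high in acute-phase genes (diamonds), filled where the adjusted p was under 0.05. Fgl1 is at 2.42 with all 10 and at 0.63 without the 4, whereas Cfi and C4b keep values above 0.5.

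In mApple vehicle livers (4 old and 6 young) 0 of 41 members were called in edgeR and 3 in DESeq2, against 1.1% of 13155 genes in edgeR (0.859% higher and 0.243% lower), with 8 members at an unadjusted p under 0.05. The 3 were Kng2, C3 and C8b. C3 had 9091, 9562, 9906 and 17974 CPM in old livers, against 6374, 7495 and 8971 CPM in young livers, without overlap (0.63 ± 0.21, edgeR adjusted p = 0.152). Kng2 had 359, 384, 429 and 653 CPM in old livers against 267, 305 and 324 CPM in young livers, without overlap too (0.61 ± 0.15, edgeR adjusted p = 0.0798). These were the 2 members without overlap, both higher, against 3.1% of all genes wholly higher and 2.44% wholly lower. C8b was at -0.44 ± 0.14 (edgeR adjusted p = 0.132) and C6 at -0.57 ± 0.24 (edgeR adjusted p = 0.231). The highest old value of C3, of Kng2 and of Fgl1 (1555 CPM) was that of library 1137. Of 57 other pathway genes 2 rose, the factor XIII A subunit F13a1 (2.74) and Gas6 (1.01). This comparison and the young one share their young control livers, and that of age in Myc ruxolitinib livers shares livers with both combined comparisons.

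Members that form one protein or lie next to each other were compared across the 58 livers after the mean of each group and batch was taken off log2(CPM + 1), with p from 100000 permutations of livers within group and batch, adjusted over 11 pairs. The fibrinogen chains followed each other closely. Pearson's r was 0.97 for Fga and Fgb, 0.97 for Fgb and Fgg and 0.94 for Fga and Fgg, with Spearman's rho of 0.95, 0.95 and 0.90. Without the 2 farthest livers r was 0.96, 0.95 and 0.92, and within batches it lay between 0.92 and 0.99. For these 3 pairs and for F7 with F10, C2 with Cfb, Kng1 with Kng2 and C8a with C8b the permutation p was 1e-05, the smallest the draws can give (adjusted 1.57e-05). F7 and F10, 1.503 kb apart on chromosome 8, had an r of 0.90 (rho 0.88; r was 0.94 among first-batch livers and 0.82 among second-batch livers), and C2 and Cfb, 0.088 kb apart on chromosome 17, one of 0.79 (rho 0.69, and r of 0.94 and 0.65 by batch in that order). Whether reads counted for both neighbours add to these correlations was not tested. Unrelated members were not compared, so the p-values do not show that a correlation is particular to partners or neighbours. The part of differing hepatocyte content between livers was not tested. Kng1 and Kng2 had an r of 0.76 (rho 0.69, and r of 0.62 and 0.82 by batch) and C8a and C8b one of 0.68 (rho 0.72, and r of 0.60 and 0.74 by batch). The third C8 chain, C8g on chromosome 2, followed them loosely, with an r of 0.41 with C8b (permutation p = 0.0290, adjusted 0.0354) and 0.32 with C8a (permutation p = 0.0166, adjusted 0.0229). Without the 2 livers farthest from the median in C8b, and in C8a, r was 0.29 and 0.23 (adjusted p = 0.155 and 0.187 by permutation). By Spearman the pair with C8b stayed past the threshold (rho 0.37, adjusted p = 0.030 by permutation). In the second batch alone the pair with C8a did (r 0.42, adjusted p = 0.0281 by permutation). Mbl1 and Mbl2 had an r of 0.30 (rho 0.14, adjusted p = 0.120 by permutation), and protein C and its cofactor protein S one of 0.10 (rho 0.13, adjusted p = 0.491 by permutation).

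**Figure D5:**
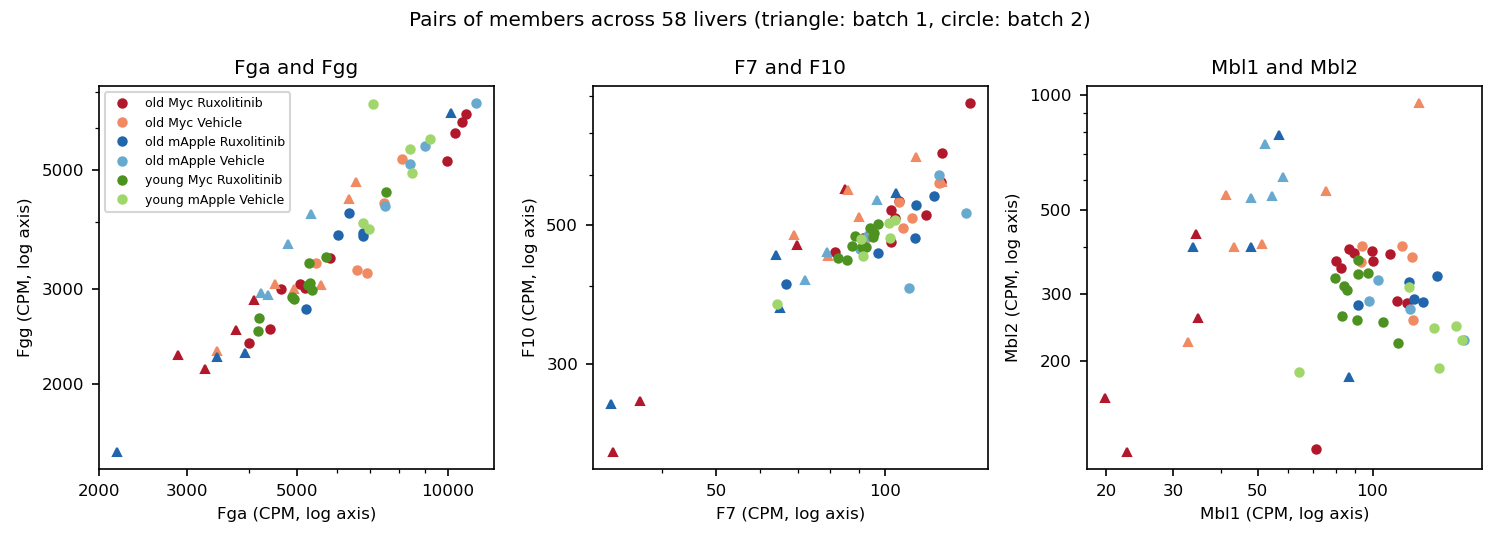
Each point is 1 of 58 livers, with the CPM of a pair of members on log axes, coloured by group and shaped by batch. Fga and Fgg lie along a line across groups, F7 and F10 do so with 3 first-batch livers far below the rest, and most first-batch livers lie at lower Mbl1 than those of the second.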

How the data were processed

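Whole-liver polyA RNA was sequenced on an Element AVITI (2 x 75 bases), per the labels' protocols. STAR and HOMER and the build GRCm38 (mm10) are named in the submitters' processing notes, with versions not given in the sources used here. The deposited table holds HOMER exon counts per gene that move in steps of 0.5, with 29.9% of values not whole, so the authors' values were treated as estimated counts and rounded. Reads of related, neighbouring or overlapping genes may be split or shared, so their values are uncertain. The related pairs are C4b with C4a, Mbl1 with Mbl2 and Kng1 with Kng2. The neighbours are C2 with Cfb and F7 with F10. The overlapping pairs are Masp2 with Tardbp, Serpind1 with Pi4ka and F5 with Gm16548, and with microRNA genes C3 (Mir6978), Cfb (Mir6972) and Cpb2 (Mir466f-3). The 58 libraries held 10.68 to 40.98 M counts, which sets the counting error, and of 164 library pairs sharing group and batch 0 were identical.

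Groups came from the labels. Comparisons used edgeR 4.0.16's quasi-likelihood test in R 4.3.3 with TMM scaling, filterByExpr (minimum count 10) and batch as a covariate where a comparison spans both, with Benjamini-Hochberg adjustment over all genes tested and a threshold of 0.05. CPM used TMM-scaled totals, and correlations log2(CPM + 1). The labels do not say that the livers came from separate cages or experiments, so p-values measure only the spread among these samples. The alternatives were DESeq2 1.42.0, RLE size factors, library totals, no filter, batch left out, the batches fitted apart, 1 fit of all 58 libraries and each library left out in turn. In the fit of all 58, old groups otherwise compared within the second batch also held their first-batch livers. The fits were tested on simulated data. The members and lists were chosen with earlier results of these data known, and the genes named are members and, of the other pathway genes, at most 4 called per comparison by smallest p. Hc, C4a and single acute-phase genes, regulators and hepatocyte markers were named after their values were seen, and 1 other pathway gene is not reported here. Promoters come from RefSeq (GRCm38.p6), and C2, C4b, Cfb, Cfi, Masp1, Serping1, Kng1, Plg, Proc and Fgl1 had none in the table used.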

Additional observations from a re-analysis of the deposited data

Results flagged for a closer look

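In 35 of 164 combinations of a member and a group of 4 to 10 livers, the gap between the highest or lowest liver and the nearest other, divided by the group's range, was above Dixon's critical value. For a single group of values chance gives about 1 in 20, but members move together within a liver, so the 164 are not independent and their number cannot be read against that rate. Most belonged to 4 livers.

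Library 1137 (old mApple vehicle) was highest for C3 (17974 CPM), F5 (993 CPM), C4bp (945 CPM), Cfi (1289.9 CPM), Kng2 (653 CPM), Fgl1 (1555 CPM), C8a (1622 CPM) and F9 (296 CPM). Library 864 (old mApple ruxolitinib) was highest for C3 (21603 CPM), Serping1 (2700.2 CPM), Kng1 (3699 CPM), Fgl1 (1100.0 CPM), Cpb2 (1156 CPM) and Pros1 (137 CPM). Both livers were also the highest of their groups in Saa1, at 2097 and 9331 CPM, and library 864 also in neutrophil markers (720.5 CPM summed) and lowest in hepatocyte markers (50734 CPM). The part of an acute-phase state or of other cells in their values was not tested.

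Library 1127 (young Myc ruxolitinib) was highest for Fga (7536 CPM), Fgb (6504 CPM), Fgg (4549 CPM), Fgl1 (236 CPM) and C4b (2089 CPM), with Saa1 at 432 CPM. In the same group library 1123 was highest for Cfi (638 CPM) and F11 (77.6 CPM), and library 1122 was lowest for Masp1 (66.2 CPM). Library 1134 (young mApple vehicle) was highest for F13b (339.8 CPM), F5 (1294 CPM), Serping1 (1405 CPM), Kng1 (3675 CPM), Cpb2 (656 CPM), Hrg (2587 CPM) and F9 (361 CPM). It was lowest for Vtn (1699.8 CPM), F12 (300.9 CPM), C2 (73.8 CPM), F2 (1438 CPM) and F7 (64.4 CPM). Library 856 (old mApple ruxolitinib) was highest for Mbl2 (784.7 CPM).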

How the results depend on the processing

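No paired analysis was possible because the groups share no replicate numbers, each library number being used once. Of 540 values of the 64 called members and comparisons under the alternatives, 441 kept their direction and call, 98 lost the call and 1 changed sign, Kng1 for age in Myc ruxolitinib livers (-0.004145 without libraries 1149, 1150, 1154 and 1158). The causes were not tested.

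The number of members called changed by over 1.5 times as follows. For ruxolitinib in old Myc livers it was 0, against 2 in 1 fit of all 58 libraries, 2 without those 4 libraries and 0 to 1 with each library left out (1 without library 1158). For ruxolitinib in old mApple livers it was 0, against 1 with DESeq2, 1 without libraries 860, 861, 864 and 865 (left out together because they stood apart in earlier results) and 0 to 2 with each left out. For Myc under vehicle it was 7, against 3 in the first batch, 0 in the second and 5 to 12 with each left out. For Myc under ruxolitinib it was 3, against 5 in the fit of all 58, 1 without the batch term, 0 in the first batch, 6 without the 4 livers, 6 without library 864 as well, and 2 to 6 with each left out. For both in young livers it was 31, against 20 with library totals, 16 in the fit of all 58 and 28 to 34 with each left out. For both in old livers it was 1, against 3 with DESeq2, 14 in the fit of all 58, 20 without the 4, 15 without library 1137 as well, and 0 to 4 with each left out (4 without library 1158). For age in mApple vehicle livers it was 0 against 3 with DESeq2, and for age in Myc ruxolitinib livers 22 against 14 in the fit of all 58 and 18 to 24 with each left out. DESeq2 called 10 in Myc under vehicle.

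Over all genes, calls ranged over 9 to 907 (main 75) for ruxolitinib in Myc livers, 6 to 142 (53) in mApple livers, 629 to 3254 (2544) for Myc under vehicle, 0 to 2904 (2012) under ruxolitinib, 539 to 3349 (1496) for both in old livers, 22 to 649 (145) for age in mApple vehicle livers and 3 to 202 (39) for its interaction. With library totals the share of calls that were higher was 90.0% against 57.4% for Myc under vehicle, 87.0% against 58.5% under ruxolitinib and 86.5% against 60.0% for both in old livers.

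For C8a with C8g, r was 0.2629 by Spearman, 0.2162 with totals, 0.2278 without the 2 farthest livers and 0.3105 in the first batch. For C8b with C8g it was 0.1973 with totals, 0.2912 without the 2 farthest, 0.5594 within the first batch and 0.2734 within the second. Kng1 with Kng2 was at 0.6182 in the first batch and Proc with Pros1 at -0.1466 with totals, and these were not past the threshold. The mean summed level in young mApple vehicle livers was 5.049% with totals, against 5.633% with TMM. The ranges of the young groups overlapped with totals and not with TMM.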
